A study of Mus musculus with 21 samples.

Results

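The 9 genes described here, Zfp786, Sspo, Zfp862-ps, Atp6v0e2, Lrrc61, Rarres2, Ccdc126, Plekha8 and Herc6, lie on mouse chromosome 6 on either side of HIRE1 (Hoxa inter-TAD regulatory element 1), a distal super-enhancer region of the Hoxa gene cluster. They were chosen by their measured counts, among the 24594 genes of each count table, because these differed between HIRE1del and wild-type (WT) embryos and because they lie within about 10 Mb of the deletion without belonging to the Hoxa cluster. The difference between HIRE1del and WT is therefore how they were found and is given below as a description. The comparison that follows is whether that difference was equal in pharyngeal arch 2 (PA2) and pharyngeal arch 3 (PA3), and how the same genes varied between wild-type arches and over developmental stages.

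The genotype series held PA2 and PA3 tissue dissected at E10.5 (embryonic day) from WT and from homozygous HIRE1del/del embryos, with 3 libraries in each of the 4 groups. The deletion was made with CRISPR/Cas9 in zygotes on the C57Bl/6J background, and all mice were then kept on a mixed C57Bl/6J;CD1 background. The stage series held wild-type cranial neural crest cells carrying Wnt1::Cre and ROSARFP, in which Cre marks the neural crest lineage with a red fluorescent protein, sorted from E10.5 PA2, from the E12.5 pinna and from the E14.5 pinna, with 3 libraries each. The tissue was dissociated with trypsin at E10.5 and E12.5 and with papain at E14.5, so that the enzyme and the last stage cannot be told apart. The strain of origin of the chromosome segment that flanks the deletion and the deletion itself cannot be told apart in these libraries. The labels describe the 3 libraries of a group as independent biological replicates, and embryos were pooled.

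Pharyngeal arches are embryonic swellings filled with cranial neural crest cells that build much of the face, ear and neck, and Hox genes give the crest of each arch its identity. Hoxa2 is the Hox gene that sets the fate of PA2, whose crest forms the outer ear. Genes that share a chromosome segment can differ between strains of mice in their regulatory sequence, and such differences are inherited together with a nearby engineered change.

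Total counts ran from 25.8 to 32.21 M per genotype library and from 25.81 to 49.06 M per stage library (M, the unit behind CPM). All 9 genes passed the filter on low counts (at least 1 count per M counts, CPM, in at least 2 libraries), with a lowest count of 63 in the genotype series and 36 in the stage series. Hoxa2 averaged 78.3 ± 5.49 CPM in WT PA2 and 5.87 ± 1.17 in HIRE1del PA2, and 61.4 ± 4.72 in WT PA3 and 23.8 ± 1.75 in HIRE1del PA3 (SD, n = 3 each). Hoxa3 averaged 29 ± 1.22 CPM in WT PA3 and 6.41 ± 1.09 in HIRE1del PA3. All 6 mesenchymal crest markers were above 1 CPM in every group, with sums of 377 to 1330 CPM. In PA2 the genotypes were apart in this sum (548 to 586 CPM in WT and 600 to 688 in HIRE1del) and in that of 4 neuronal markers (24 to 27.7 and 14.8 to 20.6 CPM), while both sums overlapped in PA3 (377 to 462 and 444 to 546 CPM, and 60.2 to 104 and 39.2 to 127 CPM). The part of these cells in the PA2 differences of all 9 genes was not tested. The genotype libraries, although labelled as cranial neural crest cells, also held sums of 161 to 523 CPM of 4 epithelial markers, 193 to 228 CPM of 3 endothelial markers, 704 to 10600 CPM of 3 erythroid markers and 15.9 to 24.2 CPM of 3 macrophage markers. In the stage series the same sums were at most 20.6 CPM for epithelium, 3.95 for erythroid cells and 2.4 for macrophages, while the endothelial sum was 107 to 172 CPM at E14.5.

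By position (GRCm38), 7 of the 9 genes lie on the lower-coordinate side of HIRE1 and 2 on the Hoxa side. The outermost of the 7 is Zfp786, at chr6:47819266-47830867 on the minus strand, 3.082 Mb from HIRE1 and in a cluster of zinc finger genes. Next comes a run of 5 genes 2.412 to 2.34 Mb from HIRE1, made of Sspo (chr6:48448229-48501250), Zfp862-ps (chr6:48504337-48534832), Atp6v0e2 (chr6:48537615-48541801) and Lrrc61 (chr6:48554796-48570722) on the plus strand and Rarres2 (chr6:48569696-48572789) on the minus strand. In this run 3086 bases separated Sspo from Zfp862-ps, and 2782 bases separated Zfp862-ps from Atp6v0e2. Ccdc126 (chr6:49319274-49341582) lies 1.572 Mb from HIRE1 on the same side. Beyond the Hoxa cluster, on the other side of the deletion, lie Plekha8 (chr6:54595111-54645839) at 3.507 Mb and Herc6 (chr6:57581000-57664632) at 6.493 Mb. Hoxa2 lies 1.075 Mb from HIRE1 on that side, so that each of the 9 genes was farther from the deletion than Hoxa2.

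The members have no known common function. Atp6v0e2 encodes a small subunit of the membrane sector of the vacuolar proton pump (V-ATPase), which acidifies organelles. Zfp786 encodes a KRAB zinc finger protein, of the family of DNA-binding repressors, and Zfp862-ps is a unitary pseudogene that is still transcribed in mouse. Sspo encodes SCO-spondin, a very large secreted glycoprotein of the brain ventricles, and Rarres2 encodes chemerin, a secreted attractant of immune cells. Plekha8 encodes a Golgi protein that moves glycolipids, and Herc6 encodes an interferon-induced ligase that attaches the ubiquitin-like protein ISG15. Lrrc61 and Ccdc126 are named for their leucine-rich repeats and coiled coil.

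RefSeq promoter sequence (GRCm38.p6) was matched for 6 of the 9 genes, Zfp786, Sspo, Atp6v0e2, Ccdc126, Plekha8 and Herc6, and not for Zfp862-ps, Lrrc61 and Rarres2. The 250 bases before the RefSeq start are shown for the member with the largest mean difference in HIRE1del (Atp6v0e2), for Sspo and Ccdc126, the members with the lowest mean change, and for Herc6, the most distant, all on the plus strand and read 5′ to 3′. They lie at chr6:48537319-48537568, chr6:48447924-48448173, chr6:49319024-49319273 and chr6:57580742-57580991.
Atp6v0e2: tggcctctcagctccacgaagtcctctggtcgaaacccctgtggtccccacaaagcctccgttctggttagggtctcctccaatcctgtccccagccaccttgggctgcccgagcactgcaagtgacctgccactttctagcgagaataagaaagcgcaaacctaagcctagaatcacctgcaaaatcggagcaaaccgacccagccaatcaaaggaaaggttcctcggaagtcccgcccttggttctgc
Sspo: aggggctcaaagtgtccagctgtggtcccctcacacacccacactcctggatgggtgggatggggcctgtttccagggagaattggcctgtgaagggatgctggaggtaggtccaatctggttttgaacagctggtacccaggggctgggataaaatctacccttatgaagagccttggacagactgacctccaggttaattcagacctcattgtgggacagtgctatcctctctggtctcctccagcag
Ccdc126: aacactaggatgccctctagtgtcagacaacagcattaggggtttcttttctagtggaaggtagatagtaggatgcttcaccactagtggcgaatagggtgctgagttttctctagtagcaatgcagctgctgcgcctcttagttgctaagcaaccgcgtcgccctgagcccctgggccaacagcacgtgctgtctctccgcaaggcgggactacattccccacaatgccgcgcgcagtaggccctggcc
Herc6: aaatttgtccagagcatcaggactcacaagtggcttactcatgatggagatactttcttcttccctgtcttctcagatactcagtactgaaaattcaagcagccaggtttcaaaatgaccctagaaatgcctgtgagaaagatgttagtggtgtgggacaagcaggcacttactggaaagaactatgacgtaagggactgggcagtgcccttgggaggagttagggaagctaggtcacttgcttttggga
Capitals were reserved for matches to TGATNNAT, the letters bound by Hox with Pbx, and to TGACAG, the letters bound by Meis, searched on both strands. None of the windows of the 6 matched genes held either motif, so these sequences have no capitals. Over all 32817 RefSeq promoters of this length, 7.69% held the first motif and 15.9% the second. The GC content ran from 46% in Herc6 to 56.4% in Atp6v0e2 among those shown. In the Atp6v0e2 window 156 bases fall within 1700026J14Rik, a transcript that did not pass the filter.

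Compared per exonic length, Plekha8 was the most abundant in WT PA2 (24.5 RPKM, reads per kilobase of exon and per M reads, mean of 3). Zfp862-ps (6.04 RPKM) and Lrrc61 (4.84 RPKM) followed. Rarres2 (2.89 RPKM), Ccdc126 (2.8 RPKM) and Zfp786 (2.74 RPKM) did not differ beyond the range of their libraries. Atp6v0e2 (1.57 RPKM), Herc6 (1.38 RPKM) and Sspo (0.303 RPKM) were the lowest.

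Atp6v0e2, the proton pump subunit, had the largest difference in HIRE1del in PA2, and in PA3 that of Ccdc126 was of similar size. In PA2 it was at 3.48, 3.58 and 4.16 CPM in the WT libraries and at 7.89, 8.69 and 8.68 CPM in the HIRE1del libraries. In PA3 it was at 4.71, 4.25 and 4.09 CPM in WT and at 7.07, 8.32 and 8.2 CPM in HIRE1del. Every HIRE1del library of either arch was above every WT library. The log2 change (HIRE1del against WT) was 1.17 (SE 0.126) in PA2 and 0.86 (SE 0.125) in PA3. The paralog Atp6v0e, on another chromosome, averaged 16.4 ± 1.08 CPM in WT PA2, 16.2 ± 0.567 in HIRE1del PA2, 23.7 ± 1.32 in WT PA3 and 24.7 ± 1.84 in HIRE1del PA3. Its log2 change was -0.02 (SE 0.0826) in PA2 and 0.06 (SE 0.0801) in PA3.

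Zfp786 was the other member that was higher in HIRE1del. It was at 8.52, 8.77 and 8.9 CPM in WT PA2 and at 10.15, 11.22 and 10.46 CPM in HIRE1del PA2. In PA3 it was at 6.08, 6.29 and 5.82 CPM in WT and at 8.72, 8.88 and 8.52 CPM in HIRE1del. The genotypes did not overlap within either arch, yet the HIRE1del PA3 libraries overlapped the WT PA2 libraries, as the arches also differed. The log2 change was 0.28 (SE 0.0913) in PA2 and 0.52 (SE 0.0937) in PA3.

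The other 7 members were lower in HIRE1del in each arch. The pseudogene Zfp862-ps was at 40.9, 43.3 and 42.1 CPM in WT PA2 and at 30.5, 29 and 26.5 CPM in HIRE1del PA2. In PA3 it was at 38, 37.8 and 40.7 CPM in WT and at 26.1, 27.6 and 25.4 CPM in HIRE1del. Its 6 HIRE1del libraries all lay below its 6 WT libraries, and the log2 change was -0.56 in PA2 (SE 0.0671) and -0.56 in PA3 (SE 0.0673). Sspo, its neighbour, was at 4.57, 5.05 and 4.8 CPM in WT PA2 and at 3.16, 2.46 and 2.44 CPM in HIRE1del PA2. In PA3 Sspo was at 6.66, 5.86 and 5.53 CPM in WT and at 3.4, 3.22 and 3.58 CPM in HIRE1del. Sspo thus had the same order, with log2 changes of -0.84 (SE 0.149) in PA2 and -0.82 (SE 0.145) in PA3. The markers Foxa2, Shh and Sim2, listed for the floor plate, summed to 8.08 to 17 CPM over the 4 groups, with overlapping ranges between genotypes. In the sorted crest of the stage series Sim2 was above 1 CPM and Foxa2 and Shh were not, so this sum does not measure floor plate alone. The part of floor plate tissue in the Sspo counts was not tested.

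Lrrc61 was at 14.48, 14.27 and 13.58 CPM in WT PA2 and at 10.94, 9.937 and 10.53 CPM in HIRE1del PA2. In PA3 it was at 14.6, 14.4 and 15.7 CPM in WT and at 11, 10.8 and 10.6 CPM in HIRE1del. The genotypes were apart in each arch, and the log2 changes were -0.43 (SE 0.0816) and -0.47 (SE 0.0812). Rarres2, the chemerin gene, was at 8.48, 8.07 and 6.46 CPM in WT PA2 and at 4.62, 3.86 and 4.14 CPM in HIRE1del PA2. In PA3 Rarres2 was at 8.8, 10.8 and 9.11 CPM in WT and at 8.23, 7.24 and 5.53 CPM in HIRE1del. The genotypes did not overlap, but WT replicate 1 and HIRE1del replicate 1 of PA3 were close, and the coefficient of variation in HIRE1del PA3 was 19.5%, the highest of any member in the 4 groups of this series. Its log2 change was -0.86 (SE 0.165) in PA2 and -0.45 (SE 0.158) in PA3. Lrrc61 and Rarres2 share 892 exonic bases on opposite strands, 30.6% of the exonic bases of Lrrc61 and 33.6% of those of Rarres2. The libraries were described as unstranded, while counting used an orientation setting, so how strand was used is unclear. Reads from the shared bases may not be told apart, and the values of these 2 genes may not be independent.

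Ccdc126 was at 7.16, 6.98 and 6.22 CPM in WT PA2 and at 4.4, 3.62 and 4.73 CPM in HIRE1del PA2. In PA3 it was at 5.62, 6.75 and 6.76 CPM in WT and at 2.99, 3.85 and 3.65 CPM in HIRE1del. No HIRE1del library reached a WT library, and the log2 changes were -0.67 (SE 0.149) and -0.87 (SE 0.151). Plekha8, the glycolipid carrier, was at 171, 169 and 175 CPM in WT PA2 and at 140, 148 and 155 CPM in HIRE1del PA2. In PA3 Plekha8 was at 155, 148 and 154 CPM in WT and at 118, 131 and 125 CPM in HIRE1del. Its difference was the smallest of the members in PA2 and had the smallest SE, with log2 changes of -0.22 (SE 0.052) and -0.29 (SE 0.0522).

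Herc6 was the member whose difference stood out in 1 arch. It was at 8.09, 7.47 and 8.1 CPM in WT PA2 and at 4.51, 4.79 and 5.51 CPM in HIRE1del PA2. In PA3 it was at 7.35, 7.43 and 6.27 CPM in WT and at 5.72, 6.75 and 6.4 CPM in HIRE1del. The groups were apart in PA2, whereas in PA3 WT replicate 3 lay below HIRE1del replicates 2 and 3. The log2 change was -0.68 (SE 0.125) in PA2 and -0.16 (SE 0.123) in PA3. The macrophage marker sum overlapped between the genotypes in each arch.

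**Figure D1:**
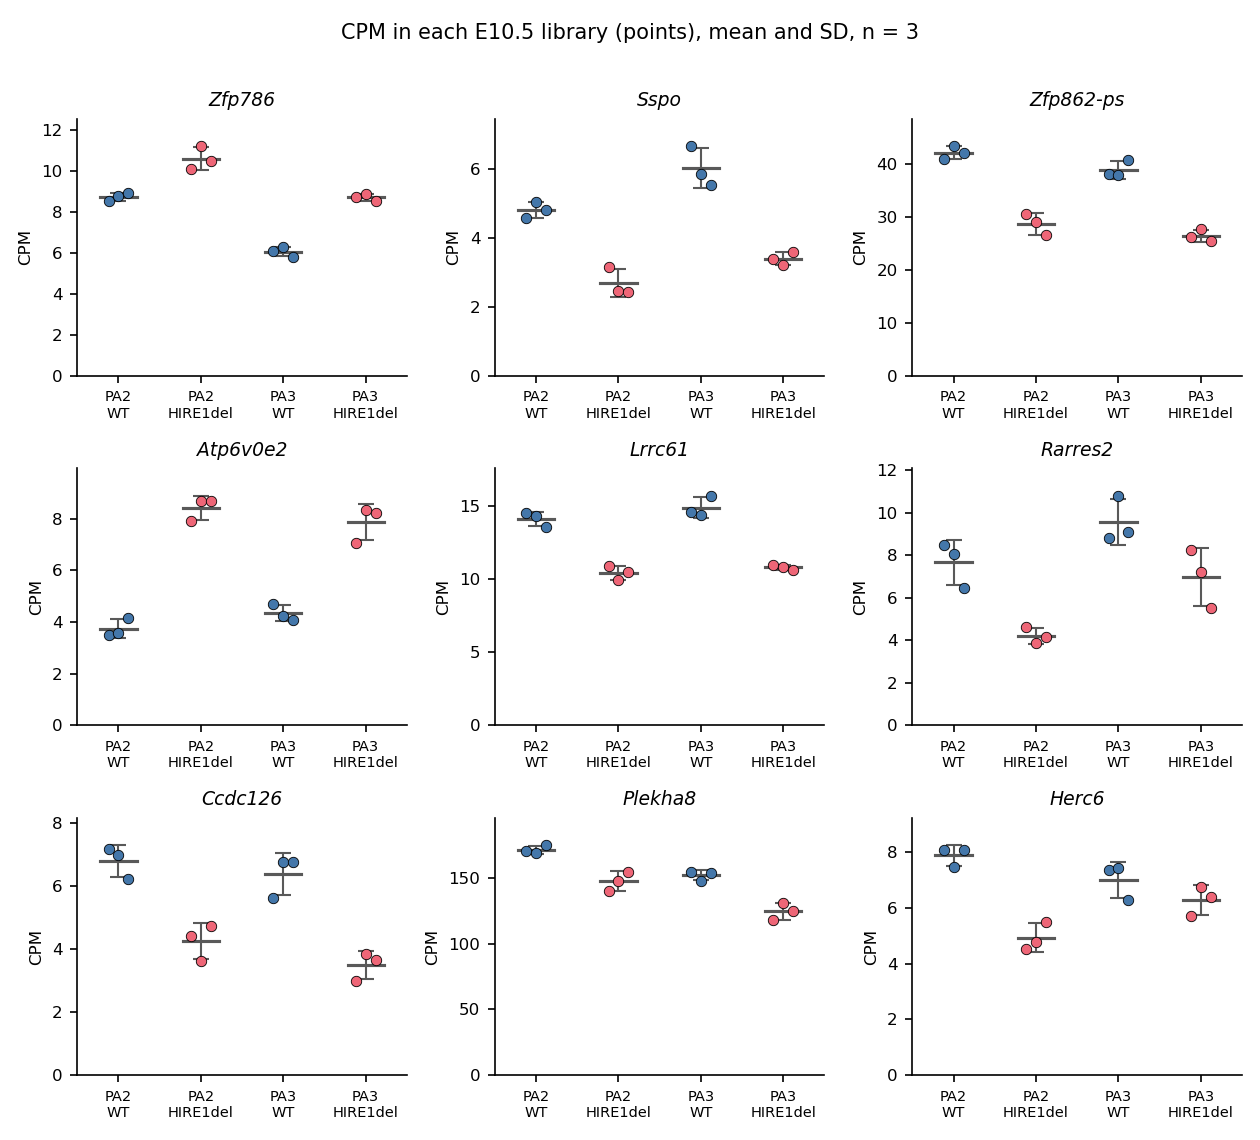
CPM (vertical axes, from 0) of the 9 genes in the 4 groups of E10.5 libraries, with WT in blue and HIRE1del in red. Points are libraries, and the lines and bars are the mean and SD of 3. The WT and HIRE1del points are apart in every panel and arch except Herc6 in PA3.

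By the edgeR call used throughout (quasi-likelihood test, Benjamini-Hochberg adjusted p under 0.05 over 14383 genes), 6 of the 9 genes were called in PA2, 1 higher and 5 lower, where 0.438% of all genes were called (0.118% higher and 0.32% lower). In PA3 7 of the 9 were called, 2 higher and 5 lower, where 0.216% of all genes were called (0.0556% higher and 0.16% lower). The libraries of the genotypes did not overlap for 9 of the 9 genes in PA2, against 13.2% of all genes, and for 8 of the 9 in PA3, against 14.3%. At the change averaged over both arches, 8 of the 9 were called, where 0.709% of all genes were called, and Herc6 had an adjusted p of 0.0512. That fit takes the paired PA2 and PA3 libraries as independent. With the counts of each pair summed (replicate block, 3 pairs per genotype), 5 of the 9 were called, where 0.285% of all genes were, namely Atp6v0e2, Zfp862-ps, Sspo, Ccdc126 and Lrrc61. Leaving out any 1 of the 6 libraries of a contrast left 2 to 3 members called in PA2 and 1 to 2 in PA3. The share of all genes called in those fits is not given, so a general loss of calls with fewer libraries cannot be told apart. These counts follow from how the genes were chosen, and nothing is read from them. The members called in PA2 but not in PA3 were Rarres2 and Herc6, and those called in PA3 but not in PA2 were Zfp786, Ccdc126 and Plekha8. The members just inside the threshold were Rarres2 in PA2 (adjusted p 0.0378) and Zfp786 and Plekha8 in PA3 (0.043 each), and those nearest outside were Ccdc126 (0.086) and Plekha8 (0.125) in PA2, while in PA3 the nearest was Rarres2, at 0.401.

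The question of whether the difference was equal in both arches was tested with the interaction term, the change in PA2 minus the change in PA3, over all 14383 genes. None of the 9 genes was called, where 0.0487% of all genes (7 genes) were called. At an unadjusted p under 0.05 there was 1 member, Herc6, against 5.52% of all genes, and DESeq2 also called none of the 9. The test uses the same libraries as the choice of genes. A gene chosen because it passed in 1 arch only is more likely to show unequal changes, which applies to Herc6, Rarres2, Zfp786, Ccdc126 and Plekha8. By the same choice, a gene that passed in both arches may show more equal changes, which applies to Atp6v0e2, Sspo, Zfp862-ps and Lrrc61.

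With a block for each PA2 and PA3 pair, 26 of all genes were called in the interaction in place of 7, and no member was. The intervals show how far the arches could differ in the fit without this block, which takes the paired libraries as independent. They were narrowest for Plekha8 (difference 0.07 on the log2 scale, 95% confidence interval -0.09 to 0.23), Zfp862-ps (0.003, -0.20 to 0.21) and Lrrc61 (0.04, -0.21 to 0.28). These 3 intervals hold no difference beyond 0.28 in either direction. Sspo (-0.02, -0.46 to 0.42) was centred near 0 with a wider interval, and that of Ccdc126 (0.19, -0.26 to 0.65) was wider as well.

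The largest differences between arches were those of Herc6, Rarres2, Atp6v0e2 and Zfp786. For Herc6 the change was lower in PA2 by a log2 difference of -0.52 (95% interval -0.90 to -0.14, unadjusted p 0.0108, edgeR adjusted p 0.887). For Rarres2 the difference was -0.41 (-0.91 to 0.08, adjusted p 0.887), for Atp6v0e2 0.31 (-0.07 to 0.69, adjusted p 0.89) and for Zfp786 -0.24 (-0.52 to 0.04, adjusted p 0.887). The intervals of Rarres2, Atp6v0e2, Zfp786 and Ccdc126 hold an equal change as well as one that differs by 0.5 or more. A p that misses the threshold does not show that the arches were alike. The interaction of Hoxa2 was -2.37 (SE 0.158, edgeR adjusted p 1.56e-05), with log2 changes of -3.735 in PA2 and -1.365 in PA3. Each was larger than the change of any member in the same arch, so the size of its interaction is not compared with theirs.

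**Figure D2:**
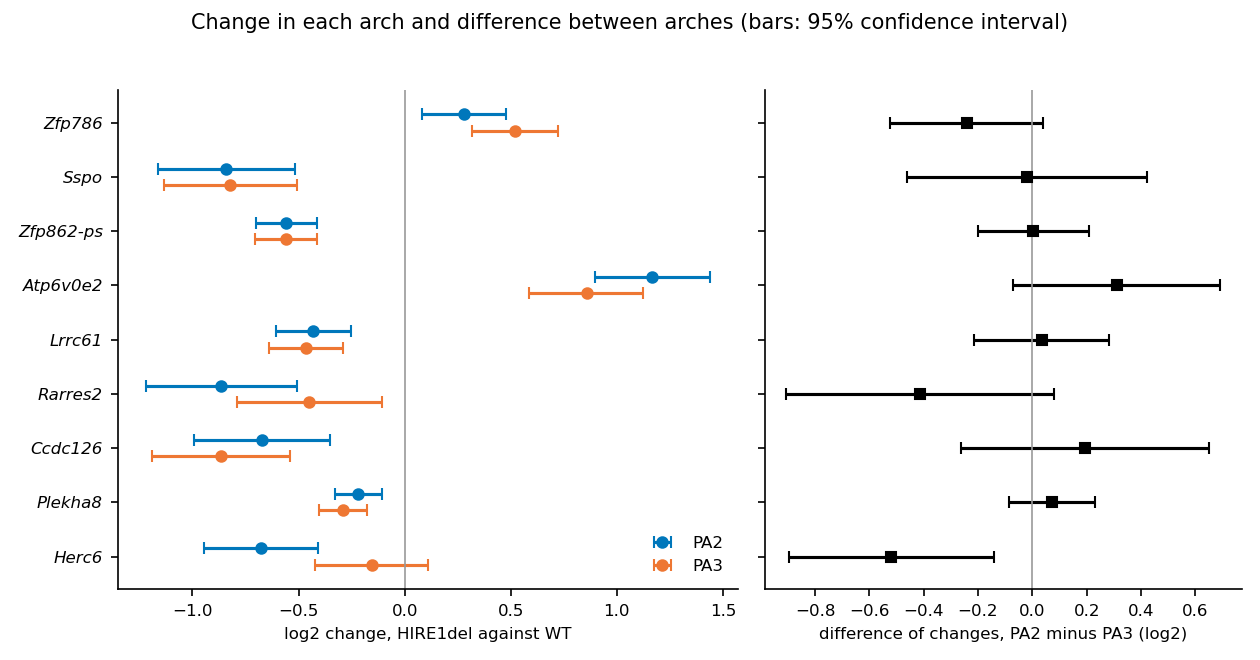
Left, log2 change (HIRE1del against WT) of each gene in PA2 (blue) and PA3 (orange). Right, the difference of the changes, PA2 minus PA3. Bars are 95% confidence intervals from the edgeR fit with 3 libraries per group, which takes the paired PA2 and PA3 libraries as independent. The intervals at the right cross 0 for 8 of the 9 genes, and that of Herc6 runs from -0.90 to -0.14.

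The 9 genes were then placed among their neighbours. Within 10 Mb of HIRE1, 106 of the 233 genes in the table passed the filter. Of these, 11 were called in PA2 (10.4%) and 12 in PA3 (11.3%), compared with 3 (0.498%) and 2 (0.332%) of the 603 other tested genes of chromosome 6, and 0.359% and 0.124% of the genes on other chromosomes. All the genes of the window called in a single arch were either members or of the Hoxa cluster. Among the 90 other tested genes of the window none was called by edgeR, and 12 in PA2 and 18 in PA3 had an unadjusted p under 0.05, where 8.57% and 9.73% of all genes did. DESeq2 called 16 genes of the whole window in PA2 and 14 in PA3, where it called 1.13% and 0.654% of all genes. Since the members were picked as called genes, these shares describe where the called genes lie.

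The called genes of the Hoxa cluster were Hoxa2, Hoxa3, Hoxaas2 and Gm15050 in both arches, Hotairm1 in PA2 and 5730596B20Rik in PA3. They lie 1.069 to 1.09 Mb from HIRE1, and their log2 changes where called ran from -5.67 (Hoxaas2 in PA2) to -1.36 (Hoxa2 in PA3). Each was larger than the log2 change of any member in the same arch. In the stretch of 1.52 Mb from Zfp786 to Ccdc126, 31 genes were tested, namely 7 members and 24 others, and none of the 24 was called in a single arch. Their log2 changes, averaged over both arches, ran from -0.59 to 0.20. In the run of 0.125 Mb from Sspo to Rarres2, all 5 tested genes were members. The run was cut at its outer members, so this follows in part from where it was cut.

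Of the genes of the window outside the Hoxa cluster that were not members, the 5 with the smallest p of the change averaged over both arches were Prr15, Gimap9, Zfp467, Fam221a and Mindy4. Prr15, which lies 3.238 Mb from HIRE1 between the Hoxa cluster and Plekha8, averaged 2.2 CPM in WT PA2 and 5.6 in HIRE1del PA2, and 4.5 and 10.6 CPM in PA3. Its log2 changes were 1.35 in PA2 and 1.24 in PA3, both above those of Atp6v0e2, with edgeR adjusted p of 0.0732 and 0.125. Gimap9 (-0.64 in PA2 and -0.54 in PA3), Zfp467 (-0.46 and -0.51) and Fam221a (-0.54 and -0.55) lie between 2.467 and 1.523 Mb from HIRE1 on the side of Atp6v0e2. Mindy4, at 4.115 Mb on the other side, had 0.33 in PA2 and 0.13 in PA3. At the change averaged over both arches, the edgeR adjusted p was 0.00568 for Prr15, 0.0124 for Gimap9 and 0.0151 for Zfp467, below the threshold that Herc6 missed. With the counts of each pair summed, none of these 3 was called (adjusted p 0.121, 0.219 and 0.244).

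At the limits of the window, Ephb6 (0.08 in PA2 and -0.05 in PA3) and Mmrn1 (0.01 and -0.16) were the last tested genes inside, and Ssbp1 (-0.04 and 0.05) and A730020E08Rik (0.03 and -0.34) the first outside.

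**Figure D3:**
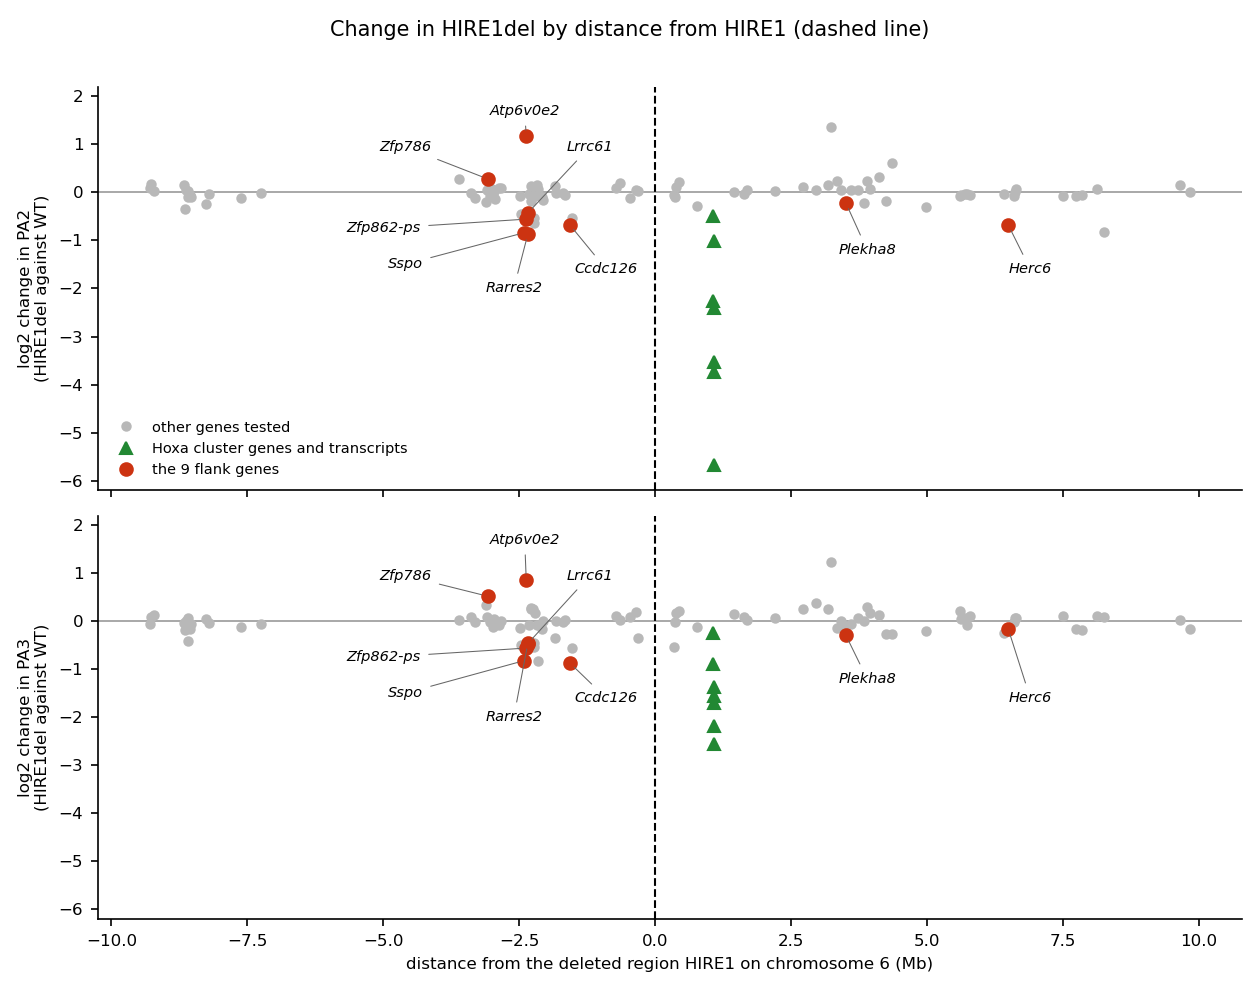
Log2 change (HIRE1del against WT, vertical axes) of the 106 tested genes within 10 Mb of HIRE1, by distance in Mb (horizontal axis, 0 at HIRE1), in PA2 above and PA3 below. Red points are the 9 genes, green triangles the Hoxa cluster and gray points the 90 other genes. Most of the red points lie in a narrow band left of HIRE1, and the triangles lie at 1.07 to 1.09 Mb on the right.

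Gene families of the members were read for changes in their other genes, using lists that contain the members themselves. Of 13 KRAB-cluster genes listed on chromosome 6, 12 were tested. Zfp862-ps was the only one called in PA2, and in PA3 Zfp786 was called higher and Zfp862-ps lower. The median log2 change of the list was -0.01 in PA2 and -0.04 in PA3, against -0.01 and 0.00 for all genes. Zfp398, of the same cluster, had log2 changes of -0.08 in PA2 and -0.02 in PA3, while Zfp467, also not called, had -0.46 and -0.51. Of the 12 tested genes, members included, 3 in PA2 and 5 in PA3 had an unadjusted p under 0.05, where 8.57% and 9.73% of all genes did. Of 25 V-ATPase subunit genes 20 were tested, and Atp6v0e2 was the only one called in either arch. The list's median was -0.02 in PA2 and 0.05 in PA3. Of chemerin and its 3 receptors, 3 genes were tested. Rarres2 was called lower in PA2, the signalling receptor Cmklr1 had 0.10 in PA2 and -0.08 in PA3, and Ccrl2, which binds chemerin at the cell surface, had -0.28 and -0.03. Of 25 interferon-stimulated genes 11 were tested, and by edgeR Herc6 was the only one called in PA2, while none was called in PA3. At an unadjusted p under 0.05 there were 2 of the 11 in PA2, Herc6 included, and 0 in PA3. The median of this list was -0.15 in PA2 and -0.02 in PA3. In the interaction, none of the 4 lists held a called gene, by edgeR or by DESeq2, and 1 listed gene, Herc6, had an unadjusted p under 0.05.

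The levels of the 9 genes were compared between the arches within each genotype. The libraries are the ones whose values chose the genes, so these contrasts are not independent of the choice, and a gene chosen for low counts in HIRE1del PA2 is more likely to be higher in HIRE1del PA3. In WT, 2 of the 9 were called, both lower in PA3, where 36.5% of all genes were called (17.4% lower). Zfp786 averaged 8.73 ± 0.192 CPM in PA2 and 6.07 ± 0.233 in PA3 (SD, n = 3 each), a log2 change of -0.53 (SE 0.0936, edgeR adjusted p 0.000802). Plekha8 averaged 172 ± 3.41 CPM in PA2 and 152 ± 3.73 in PA3 (log2 change -0.17, SE 0.0519, edgeR adjusted p 0.0182), and this call was lost without WT PA2 replicate 3 (0.0656) or WT PA3 replicate 2 (0.0738). Sspo and Rarres2 had log2 changes of 0.32 (edgeR adjusted p 0.0914) and 0.32 (edgeR adjusted p 0.13) toward PA3. The receptor genes Cmklr1 (0.70, edgeR adjusted p 0.012) and Ccrl2 (1.89, edgeR adjusted p 0.000306) were called higher in PA3 in WT.

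In HIRE1del, 4 of the 9 were called between the arches, where 33.4% of all genes were called (18.7% higher and 14.7% lower). Zfp786 (log2 change -0.28, edgeR adjusted p 0.0283) and Plekha8 (-0.25, edgeR adjusted p 0.00282) were again lower in PA3. Rarres2 was higher in PA3, with 7 ± 1.37 against 4.21 ± 0.387 CPM (log2 change 0.73, SE 0.166, edgeR adjusted p 0.0043). Herc6 was also higher in PA3, with 6.29 ± 0.52 against 4.94 ± 0.513 CPM (0.35, SE 0.126, edgeR adjusted p 0.0475). The call of Herc6 was lost without any of 4 libraries, namely HIRE1del PA2 replicate 1 or 2 or HIRE1del PA3 replicate 2 or 3 (adjusted p 0.0918 to 0.15). That of Zfp786 was lost without any of 5 libraries, all but HIRE1del PA2 replicate 1 (adjusted p 0.0512 to 0.106). Sspo would be called without HIRE1del PA2 replicate 1 (adjusted p 0.0449). A call in HIRE1del and not in WT is not a difference between the genotypes, which is what the interaction above tested. The marker sums of epithelium and erythroid cells were also higher in PA3 than in PA2 in each genotype (405 to 523 against 178 to 200 CPM and 5540 to 10400 against 704 to 1050 CPM in WT), and their part in these differences was not tested. In bulk tissue, fewer cells that express a gene and less RNA per cell cannot be told apart.

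Of the V-ATPase list in WT, 9 of the 20 tested subunit genes were called higher in PA3 and none lower, where 19.1% of all genes were called higher. Atp6v0e was one of the 9 (log2 change 0.53, edgeR adjusted p 0.000293), and Atp6v0e2 was among the 11 not called, with 0.21 (SE 0.129, edgeR adjusted p 0.22) beside a list median of 0.16. Of the 12 tested KRAB-cluster genes, 3 were called lower in PA3 in WT, namely Zfp786, Zfp398 (-0.32) and Zfp775 (-0.38).

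In sorted wild-type crest, the 9 genes were followed from E10.5 PA2 to the pinna. All values in this series come from single-end libraries counted and scaled apart from those above, and levels are not compared between the series. From E12.5 to E14.5, 8 of the 9 genes were called, 4 higher and 4 lower, where 65.7% of all genes were called (32.6% higher and 33.1% lower). From E10.5 to E12.5 there were 3 called genes, 1 higher and 2 lower, where 68.8% of all genes were called (35% and 33.7%). From E10.5 to E14.5 there were 7, 3 higher and 4 lower, where 82% were called (42% and 40%).

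Ccdc126 rose at each step. It was at 4.98, 5.01 and 4.51 CPM at E10.5, at 6.46, 7.02 and 5.57 CPM at E12.5 and at 12.3, 11.8 and 15.3 CPM at E14.5, with no overlap between stages. The log2 change was 0.39 (SE 0.144, edgeR adjusted p 0.0294) to E12.5 and 1.05 (SE 0.137, edgeR adjusted p 4.61e-05) to E14.5. Sspo was at 3.28, 3.33 and 5.23 CPM at E10.5, at 5.94, 4.08 and 5.64 CPM at E12.5 and at 8.48, 6.85 and 11.3 CPM at E14.5. The E14.5 libraries were above all others, and the rise over the whole period was 1.17 in log2 (SE 0.24, edgeR adjusted p 0.000782). Of the listed markers Foxa2, Shh and Sim2, only Sim2 was above 1 CPM, at all 3 stages. The sum of the 3 was 16.9 to 34.1 CPM at E10.5, 6.69 to 12.3 at E12.5 and 39.4 to 70.6 at E14.5. Its relation to the Sspo counts was not tested. Zfp862-ps, the pseudogene, averaged 50.9 ± 8.98 CPM at E10.5, 53.9 ± 5.09 at E12.5 and 72.3 ± 9.99 at E14.5, a rise of 0.51 (SE 0.135, edgeR adjusted p 0.00453) over the whole period.

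Plekha8, Lrrc61, Zfp786 and Herc6 fell by E14.5. Plekha8 averaged 182 ± 3.06 CPM at E10.5, 164 ± 7 at E12.5 and 85.5 ± 6 at E14.5 (log2 change -0.94, SE 0.063, edgeR adjusted p 2.74e-07 for the last step). Zfp786 was at 8.76, 9.68 and 12.7 CPM at E10.5, at 9.952, 10.06 and 10.47 CPM at E12.5 and at 5.53, 4.67 and 4.64 CPM at E14.5. It fell at the last step, with a log2 change of -1.04 (SE 0.148, edgeR adjusted p 9.42e-05). Lrrc61 averaged 13 ± 0.825, 10.7 ± 0.845 and 6.37 ± 0.475 CPM and fell at both steps (-0.28, edgeR adjusted p 0.0352, and -0.75, edgeR adjusted p 0.000103). Herc6 averaged 7.24 ± 1.01, 6.45 ± 0.746 and 4.27 ± 1.16 CPM and had a log2 change of -0.76 over the whole period (SE 0.201, edgeR adjusted p 0.0044). The interferon list moved the other way, with 8 of its 10 tested genes called higher and Herc6 the only one called lower from E10.5 to E14.5, where 42% of all genes were called higher. The endothelial marker sum moved with the list, from 6.02 to 7.82 CPM at E10.5 to 107 to 172 CPM at E14.5, as did the macrophage sum, from 0.196 to 0.48 CPM to 1.85 to 2.4 CPM, and their part was not tested.

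Rarres2 went down and up again. It was at 3.45, 2.81 and 3.86 CPM at E10.5, at 1.337, 1.208 and 1.631 CPM at E12.5 and at 2.82, 2.25 and 3.42 CPM at E14.5. The E12.5 libraries were below all others, and the 2 outer stages overlapped. The log2 change was -1.28 (SE 0.234, edgeR adjusted p 0.000513) to E12.5 and 1.02 (SE 0.232, edgeR adjusted p 0.00245) to E14.5. The endothelial marker sum was 6.02 to 7.82, 18.4 to 24.5 and 107 to 172 CPM at the 3 stages, and its part in the last step was not tested. Of the chemerin receptors, Cmklr1 had log2 changes of -1.11 and 4.99 and Ccrl2 of 4.36 and 2.88 at the 2 steps. Lrrc61, which shares exonic bases with Rarres2, had no such return.

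Atp6v0e2 was the only member not called in any of the stage comparisons. It was at 6.19, 5.11 and 4.22 CPM at E10.5, at 5.05, 5.42 and 5.68 CPM at E12.5 and at 2.84, 5.93 and 2.39 CPM at E14.5. At E14.5 replicate 2 was above the other libraries of its group by more than 3 CPM, and without it the log2 change from E12.5 was -1.04 (edgeR adjusted p 0.00117) instead of -0.53 (edgeR adjusted p 0.137).

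Several of the smaller stage calls were lost when 1 library was left out. The step to E12.5 of Lrrc61 and Ccdc126 was lost without E10.5 replicate 2 or 3 or E12.5 replicate 1 or 2 (adjusted p 0.0744 to 0.118 and 0.052 to 0.108). The step to E14.5 of Zfp862-ps, Herc6 and Sspo was lost without E12.5 replicate 2 (0.0638, 0.083 and 0.0576), that of Zfp862-ps and Herc6 also without E14.5 replicate 1 (0.0626 and 0.0687), and that of Sspo also without E14.5 replicate 3 (0.0553).

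**Figure D4:**
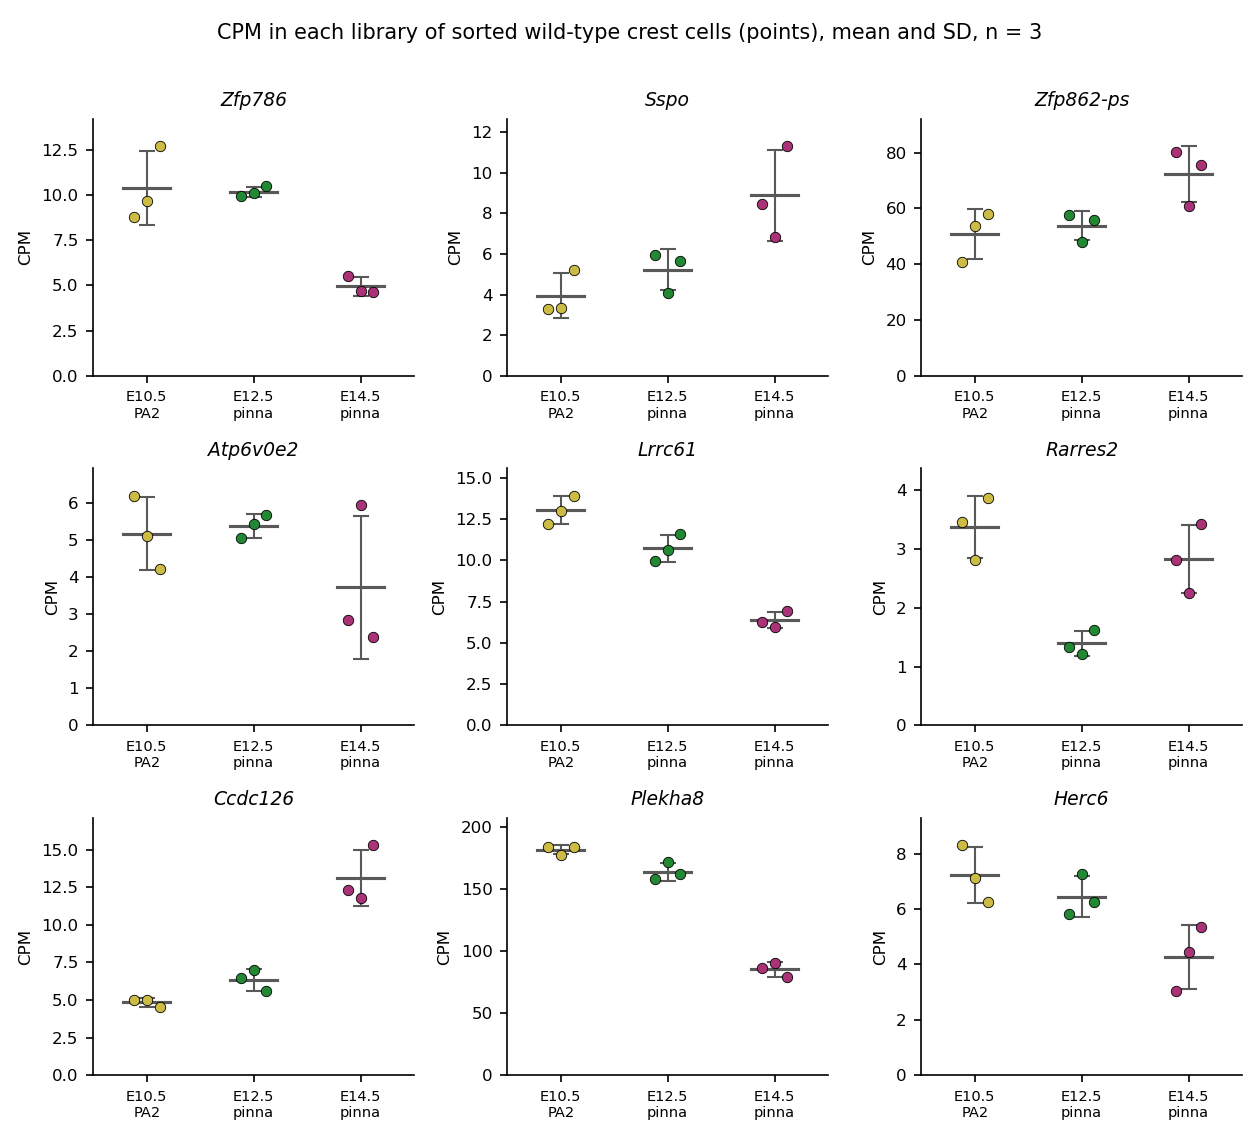
CPM (vertical axes, from 0) of the 9 genes in sorted wild-type crest cells of E10.5 PA2, E12.5 pinna and E14.5 pinna. Points are libraries, and the lines and bars are the mean and SD of 3. Ccdc126 rises at each step, Zfp786 and Plekha8 drop between E12.5 and E14.5, Rarres2 is lowest at E12.5, and Atp6v0e2 has 1 E14.5 library at 5.93 CPM above the other 2.

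Likeness was measured as Pearson's r of log2(CPM + 0.5). Over the 12 genotype libraries, which share the genotype difference that chose the members, the gene most like Zfp862-ps was Ccdc126 (r = 0.923) and the next was Lrrc61 (0.919). The gene most like Lrrc61 was Sspo (0.928). Atp6v0e2 ran against these genes, with r of -0.951 to Zfp862-ps and -0.955 to Lrrc61, and the gene most like it was Pusl1 (0.955) on chromosome 4, followed by Alx4 (0.898) and Pitx1 (0.885). Herc6 was most like Ppp1r12a (0.956), followed by Hoxa2 (0.923) and Hoxaas2 (0.92). For Zfp786 it was Ptcd3 (0.977), for Rarres2 Tvp23b (0.926) and for Plekha8 Apaf1 (0.907).

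The 20 genes most like each member held between 0 (Zfp786 and Plekha8) and 7 (Lrrc61) genes of the 10 Mb window, which holds 0.737% of all tested genes. Other members made up 4 of the 5 window genes of Zfp862-ps, 3 of the 7 of Lrrc61, 3 of the 5 of Ccdc126 and 1 of the 6 of Sspo. The top 20 of each remaining member held 0 other members. As members and Hoxa genes share a genotype difference, the counts of this series follow in part from the choice. Over the 9 stage libraries, the same count was 1 for Atp6v0e2 and 0 for each of the other 8 members. The series differ in cells and stages as well as genotype, and their counts are not compared. These correlations are descriptions over libraries that share groups, and no test was made of them.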

How the data were processed

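RNA-seq counts per gene were analysed as deposited. The authors aligned the reads (50 bases, paired-end in the genotype series and single-end in the stage series) to GRCm38/mm10 with QuasR and Rhisat2 and counted alignments over the exons of UCSC knownGene genes. The kit was described as unstranded, while counting used an orientation setting, so how strand was used is unclear.

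Each table was fitted apart, since the tables differ in read type, with edgeR 4.0.16 (R 4.3.3, limma 3.58.1) by the quasi-likelihood test, with 1 mean per group and TMM scaling. Genes were tested where 2 or more libraries reached 1 CPM, 14383 in the genotype series and 13438 in the stage series, and p-values were adjusted by Benjamini-Hochberg over all of them, with a call at an adjusted p under 0.05. The standard error was the size of the log2 change divided by the square root of F. The script was tested on simulated counts. Intervals are 95% confidence intervals and are not adjusted for the number of genes.

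The members and lists were chosen with earlier results of these data known. The genes named are the 9 members, Hoxa2 and Hoxa3, Atp6v0e, window genes called in an arch and the 5 other window genes with the smallest p of the mean change, the nearest tested genes at 10 Mb, the genes most like each member by Pearson's r, list genes called in a contrast and, chosen after their values were seen, the uncalled values of Zfp398, Cmklr1 and Ccrl2.

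Same-numbered PA2 and PA3 libraries of a genotype deviated together in all 6 pairs (r 0.213 to 0.382), and those of unlike number had r of -0.262 to 0.08. The numbers were therefore taken to pair the arches, an inference from the counts. Those of WT and HIRE1del (r -0.136 to 0.236) and of the stages (r -0.312 to 0.202) were taken not to pair, although the highest r of WT and HIRE1del lies within the range of the arches. Alternatives were RLE size factors, no filter, DESeq2 1.42.0, the 6 libraries of a contrast alone, a replicate block and leaving out each library. Summing the counts of each PA2 and PA3 pair for the averaged change was chosen after seeing the data. No pair of replicates agreed within counting noise (chi-square per degree of freedom 6.68 to 44.2).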

Additional observations from a re-analysis of the deposited data

Results flagged for a closer look

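Outside the 9 genes, the change in HIRE1del differed between PA2 and PA3 for 2 genes of the 10 Mb window, by the interaction term. For Hoxa2 the change in PA2 minus that in PA3 was -2.37 in log2 (SE 0.158, edgeR adjusted p 1.56e-05). For Hoxaas2, an antisense transcript of the Hoxa cluster, it was -4.115 (SE 0.304, edgeR adjusted p 2.89e-05). None of the 9 genes met this or another reason for a closer look.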

How the results depend on the processing

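Fitting the 6 libraries of a contrast alone, the calls dropped to 2 members in PA2 and 1 in PA3, to 6 window genes in each arch, and to 2 members between the arches of HIRE1del. Of all genes, this fit called 0.432% in PA2, 0.148% in PA3 and 29.4% between the arches of HIRE1del. The main fit called 0.438%, 0.216% and 33.4%. With the replicate block by number across genotypes, which were taken not to pair, 2 members and 7 window genes were called in PA2. In PA3 it called 1 member and 6 window genes. Of all genes, this block called 0.577% in PA2 and 0.209% in PA3. The cause of the lower member counts was not tested. With the paired block across arches no member was called in the interaction and the window again held 2 genes, and no member call between arches changed. For the change averaged over both arches, summing the counts of each pair (a replicate block) left 5 members called in place of 8. With the block over stage numbers, which were also taken not to pair, the step of Ccdc126 to E12.5 had an adjusted p of 0.0522. RLE size factors gave 6 members in PA2 and 7 in PA3, no filter 5 and 5, and DESeq2 8 and 7, and DESeq2 called 2 genes of the KRAB zinc finger list in PA2. Of all genes, RLE size factors called 0.424% in PA2 and 0.209% in PA3, no filter 0.406% and 0.186%, and DESeq2 1.13% and 0.654%. Over all genes DESeq2 called 162 in PA2 (63 by edgeR), 94 in PA3 (31) and 27 in the interaction (7), and the replicate block 26 in the interaction.

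Leaving out 1 library gave 2 to 3 members and 6 to 8 window genes in PA2, 1 to 2 members and 5 to 7 window genes in PA3, 0 members in the interaction, 1 to 2 between arches in WT, 2 to 4 in HIRE1del, and 1 to 3, 5 to 9 and 7 to 8 in the stage contrasts (E12.5 against E10.5, E14.5 against E12.5, E14.5 against E10.5). The shares of all genes called in these fits are not given, so these counts do not separate the members from genes at large. With 1 library fewer, the sign of an uncalled difference turned for the interactions of Zfp862-ps (-0.045 to 0.057) and Sspo (-0.152 to 0.05), and for the step to E12.5 of Zfp862-ps (-0.057 to 0.186), Atp6v0e2 (-0.072 to 0.206) and Zfp786 (-0.144 to 0.138). Apart from leaving out libraries, 323 results kept their side of the threshold, 35 lost it, 5 gained it and 0 reversed. With 3 libraries per group, the interaction intervals are wide, and depth limits members with counts as low as 63.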
